A study of Mus musculus with 9 samples.

Results

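Aminoacyl-tRNA synthetases are the enzymes that join each amino acid to its transfer RNA. The nuclear genome carries a cytosolic set, which serves the cytoplasmic ribosomes, and a mitochondrial set, whose symbols end in 2 and which serves the ribosomes inside mitochondria. Of 36 synthetase genes listed by symbol, 34 were found, 18 of 20 cytosolic and 16 of 16 mitochondrial, among 19938 genes on the array. A gene counted as found when a probe set was annotated to its symbol alone, and of several probe sets the one with the highest mean level across the 9 arrays stood for it. Aars shares its probe set with another gene and was left out by this rule, and Dars is not analysed here.

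Values came from 9 Affymetrix Mouse Gene 1.0 ST arrays, 1 for each independent preparation of cells from mouse back skin at postnatal day 4. The 4 SKP arrays (replicates 3, 4, 5 and 6) hold skin-derived precursor cells (SKPs) at primary passage, cultured from skin and harvested as spheres. The 5 sorted arrays (replicates 2, 16, 17, 18 and 20) hold uncultured cells of Sox2:EGFP reporter mice, sorted as EGFP-positive and CD34-negative. No strain is stated for the SKP mice. Culture, sorting and cell choice separate SKPs from sorted cells all at once and cannot be told apart. Any difference between the mice of the groups would fall on the same contrast. The comparison asks how SKPs differ from Sox2-positive cells taken directly from skin, where Sox2 marks the dermal papilla of the hair follicle.

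Protein synthesis needs every one of these enzymes, and several cytosolic members sit together in a multi-synthetase complex held by the scaffold proteins Aimp1, Aimp2 and Eef1e1. In mammalian cells short of amino acids or with stress in the endoplasmic reticulum, the transcription factor ATF4 raises many cytosolic synthetase genes. It binds C/EBP-ATF elements, which lie near the start of a number of these genes. The mitochondrial enzymes work beside mitochondrial ribosomal proteins and elongation factors that are also encoded in the nucleus.

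The C/EBP-ATF element was looked for in RefSeq promoter windows (GRCm38.p6, 250 bases before to 50 after the start), which matched 25 of the 34 members. These were 11 of the 18 cytosolic and 14 of the 16 mitochondrial members, so the cytosolic set was covered less, and the remaining members were not searched. The letters TGATGNAA, on either strand (TTNCATCA on the other), were found in 4 of 11 cytosolic members, in 0 of 14 mitochondrial members and in 4.51% of 27025 genes with a window. The 4 stretches that hold it are shown. All 4 genes were higher in SKPs, but so were 16 of the 18 cytosolic members, so the direction does not set these 4 apart. Each is 30 bases, 5′ to 3′ on the strand of the gene, with the element in capitals.
Tars: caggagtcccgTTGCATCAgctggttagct
Gars: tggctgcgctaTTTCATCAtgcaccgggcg
Yars: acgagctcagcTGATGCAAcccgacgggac
Iars: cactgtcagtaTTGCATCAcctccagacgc

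The Tars element (stretch chr15:11399655-11399684, minus strand) begins 15 bases before the start, and the Gars element (chr6:55037960-55037989, plus strand) 30 bases before it. The elements of Yars (chr4:129189895-129189924, plus strand) and Iars (chr13:49682126-49682155, plus strand) begin at bases 4 and 8 of the transcript. Tars, Yars and Iars carry the form TGATGCAA, or TTGCATCA on the other strand, which 1.03% of genes hold. Tars, Iars and Farsb also held the E-box CACGTG, as did Ears2 among the mitochondrial members and 8.09% of genes. The NRF1 palindrome, searched without mismatch, was in 0 of the 25 members and in 1.07% of genes. No hits of these motifs overlapped. A match is a description of letters and not a binding site.

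The cytosolic genes were higher in SKPs almost throughout, and the mitochondrial genes mostly were not. Of 18 cytosolic members 16 were higher and 0 lower, with a median log2 difference of 1.00 (SKP minus sorted) and a range of 0.15 to 1.58. Of 16 mitochondrial members 3 were higher, 1 lower and 12 not called, with a median of 0.07 and a range of -0.61 to 0.47. Over all genes 20.2% were higher and 16.9% were lower, and the median difference was 0.07. Calls are by limma's moderated test, where the p adjusted over all genes by Benjamini and Hochberg's method was under 0.05, and 37.0% of genes were called in either direction. Of the cytosolic members, 10 were called at 2-fold or more, against 5.46% of all genes, and 0 of the 16 mitochondrial members were. In 16 cytosolic members every SKP array lay above every sorted array, as in 18.5% of all genes.

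**Figure D1:**
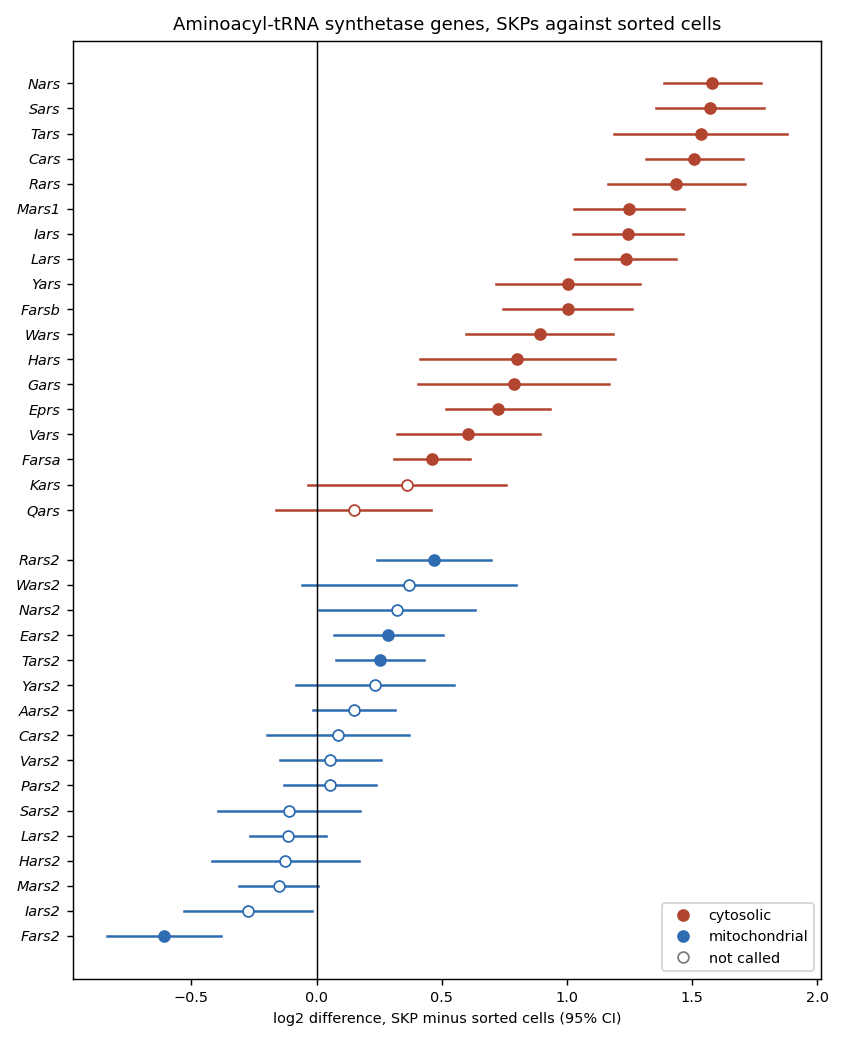
Log2 difference, SKP minus sorted cells (x axis), for 34 synthetase genes, with bars for the unadjusted 95% confidence interval and filled points for genes with an adjusted p under 0.05. The cytosolic genes (top) run from 0.15 (Qars) to 1.58 (Nars), and the mitochondrial genes (bottom) from -0.61 (Fars2) to 0.47 (Rars2).

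The largest differences were in the enzymes for asparagine, serine, threonine and cysteine. Nars, which charges tRNA with asparagine, had log2 RMA levels of 12.46, 12.43, 12.44 and 12.45 in SKPs, against 10.98, 10.70, 10.77, 10.82 and 11.05 in sorted cells (replicates in the order given above). Every SKP array lay above every sorted array, and Nars was 2.99-fold higher (log2 1.58, SE 0.09, adjusted p = 7.14e-07 by limma). Sars, the seryl-tRNA synthetase, had 12.01, 12.10, 11.98 and 11.95 in SKPs, against 10.55, 10.25, 10.44, 10.30 and 10.65 in sorted cells, and was 2.97-fold higher (adjusted p = 1.45e-06 by limma). The groups were again apart, with sorted replicate 20 the highest sorted array.

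Tars, the threonyl-tRNA synthetase, stood at 10.33, 10.52, 10.49 and 10.24 in SKPs, against 9.10, 8.60, 8.80, 8.54 and 9.26 in sorted cells. Its sorted arrays spread more widely than its SKP arrays, with replicates 2 and 20 highest, and it was 2.90-fold higher (log2 1.53, SE 0.15, adjusted p = 3.72e-05 by limma). Cars, the cysteinyl-tRNA synthetase, had 10.17, 10.33, 10.13 and 10.29 in SKPs, against 8.57, 8.62, 8.85, 8.79 and 8.77 in sorted cells. Here replicates 2 and 20 were not the highest sorted arrays, and Cars was 2.85-fold higher (log2 1.51, SE 0.09, adjusted p = 9.44e-07 by limma).

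**Figure D2:**
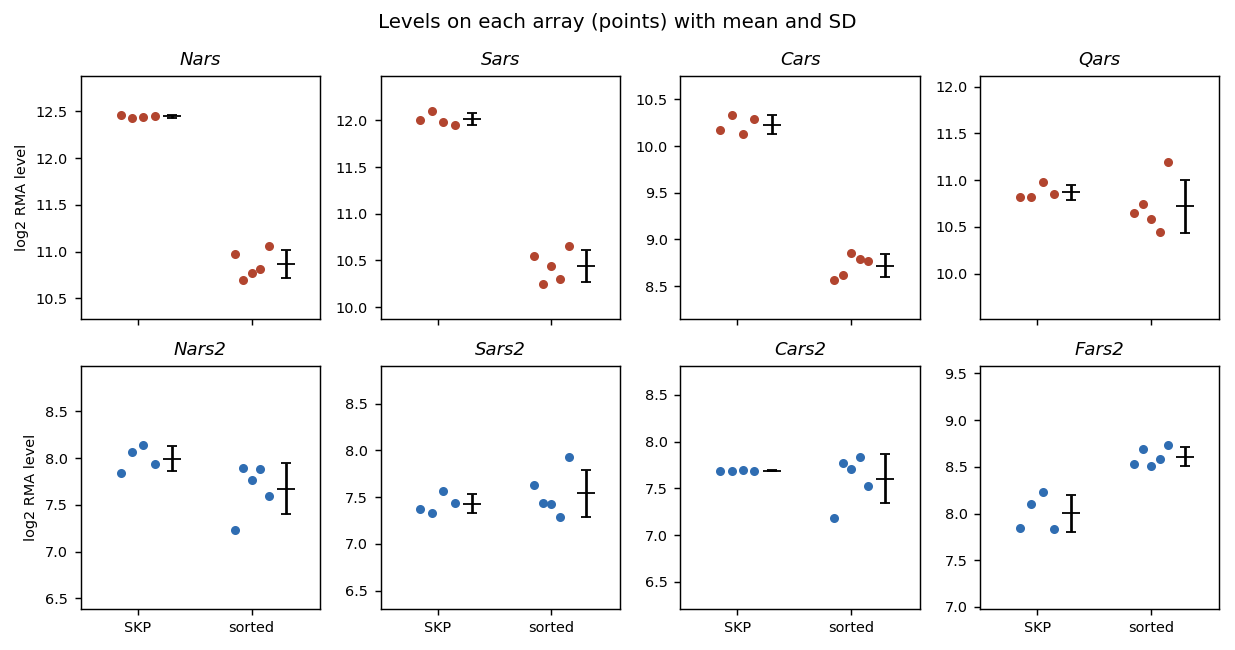
Log2 RMA level (y axis, a span of the same length in each panel) of 4 cytosolic genes (top) and 4 mitochondrial genes (bottom) on the SKP arrays (left in each panel) and the sorted arrays (right), with mean and SD. Nars, Sars and Cars were higher in SKPs with no overlap, Fars2 was lower with no overlap, and the groups of the other 4 genes overlapped.

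Of the 7 measured members of the multi-synthetase complex, 5 were higher, with a median log2 difference of 1.23 over the 7. Over all genes 20.2% were higher. Rars, the arginyl-tRNA synthetase, had 11.84, 11.63, 12.03 and 11.99 in SKPs, against 10.65, 10.39, 10.26, 10.25 and 10.63 in sorted cells, and was 2.71-fold higher (adjusted p = 1.29e-05 by limma). Iars, Lars and Mars1, the enzymes for isoleucine, leucine and methionine, moved by nearly the same amount, with log2 differences of 1.24, 1.23 and 1.25 (SE 0.10, 0.09 and 0.10). Mars1 varied little within SKPs, at 10.20, 10.25, 10.23 and 10.24, against 9.04, 8.89, 8.83, 8.88 and 9.28 in sorted cells. A further probe set of Iars, not used in the counts, averaged 10.26 in SKPs and 8.45 in sorted cells. Eprs, a fusion that charges both glutamate and proline, was 1.65-fold higher and averaged 11.19 ± 0.10 in SKPs (SD, n = 4) and 10.47 ± 0.14 in sorted cells (SD, n = 5).

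Both cytosolic members that were not called, Qars and Kars, belong to this complex. Qars, for glutamine, had 10.82, 10.82, 10.98 and 10.85 in SKPs, against 10.64, 10.74, 10.58, 10.44 and 11.19 in sorted cells. Its groups overlapped through sorted replicate 20, and its log2 difference was 0.15 (95% CI -0.16 to 0.46, adjusted p = 0.443 by limma). Kars, whose gene gives both the cytosolic and the mitochondrial lysyl-tRNA synthetase, had 9.82, 9.91, 10.09 and 9.88 in SKPs, against 9.78, 9.32, 9.33, 9.27 and 10.13 in sorted cells. Its log2 difference was 0.36 (95% CI -0.03 to 0.76, adjusted p = 0.142 by limma). Without sorted replicate 20 both were called, Kars at 0.50 (adjusted p = 0.00915) and Qars at 0.27 (adjusted p = 0.0321), so that 18 of 18 cytosolic members were higher. The count was also 18 of 18 without sorted replicates 2 and 20 together and with array weights. In these settings, in the order given, 22.9%, 25.4% and 30.8% of all genes were higher. The Qars difference moved the other way without sorted replicate 18 (0.08) and after quantile normalization (0.05), and was called in 3 of 16 alternatives.

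Of the 3 scaffold genes of the complex 1 was called higher and 0 lower, beside 20.2% and 16.9% of all genes. Eef1e1 was 2.76-fold higher (log2 1.46, adjusted p = 5.48e-04 by limma), at 10.17 to 10.46 in SKPs against 8.42 to 9.63 in sorted cells. Aimp1 and Aimp2 had log2 differences of 0.30 (adjusted p = 0.102) and 0.23 (adjusted p = 0.104), with overlapping groups. After median centring 2 of the 3 scaffold genes were higher, and without sorted replicates 2 and 20 all 3 were. Over all genes 26.6% and 25.4% were higher in these settings.

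All 11 measured cytosolic members outside the complex were higher, as were 20.2% of all genes. Farsa and Farsb encode the subunits of 1 enzyme, phenylalanyl-tRNA synthetase, and were not tested against each other. Farsb was 2.00-fold higher (log2 1.00, SE 0.12) and Farsa 1.38-fold (log2 0.46, SE 0.07). Farsa had the smallest called difference of the set, at 8.66, 8.63, 8.72 and 8.73 in SKPs, against 8.20, 8.28, 8.24, 8.12 and 8.27 in sorted cells. Its values varied little on either side, and its groups did not overlap. Yars, for tyrosine, was 2.01-fold higher and averaged 10.48 ± 0.11 in SKPs (SD, n = 4) and 9.48 ± 0.25 in sorted cells (SD, n = 5).

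Gars, Hars and Vars, for glycine, histidine and valine, had smaller differences and wide sorted groups. Gars, whose gene like Kars gives enzymes for both compartments, had 11.11, 11.14, 10.88 and 11.07 in SKPs, against 10.69, 10.04, 9.99, 9.96 and 10.62 in sorted cells. The sorted replicates 2 and 20 lay closest to SKPs, and Gars was 1.72-fold higher (log2 0.79, SE 0.17, adjusted p = 0.00471 by limma). Hars was 1.74-fold higher (log2 0.80, SE 0.17), with SKP values of 9.59 to 9.84. Its sorted replicate 2 had 9.26, replicate 20 had 9.36 and the remaining 3 had 8.59 to 8.71. Without both replicates the log2 difference was 1.05 for Gars and 1.07 for Hars. Vars was 1.52-fold higher (log2 0.61, SE 0.13, adjusted p = 0.00385 by limma).

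Wars, the tryptophanyl-tRNA synthetase, is also an interferon-induced gene in human cells. It had 9.75, 9.83, 9.77 and 9.81 in SKPs, against 9.13, 8.69, 8.70, 8.73 and 9.26 in sorted cells, and was 1.85-fold higher (log2 0.89, SE 0.13, adjusted p = 4.45e-04 by limma). Its difference lay near the middle of the cytosolic range. Of 10 measured interferon gamma target genes, 7 were higher and 1 lower (median log2 difference 1.68), led by Gbp3 (10.4-fold higher), a guanylate-binding protein. Irf1, a transcription factor of the interferon response, was 2.13-fold lower. Over all genes 20.2% were higher and 16.9% lower. The part of interferon in the Wars level was not tested.

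Of the cytosolic members, 11 were labelled as ATF4 targets for this report, and all 11 were higher, with a median of 1.24. The labels came with the member list, which was chosen with earlier results of these data known. Of the 7 others (Farsa, Farsb, Hars, Kars, Qars, Rars and Vars), 5 were higher, with a median of 0.61, and labelled and other members were not tested against each other. Rars, at 1.44, lay above most labelled members. By catalytic class, 8 of 9 class I members and 7 of 8 class II members were higher, beside Eprs, which holds a domain of each class. The class I median was 1.23 and the class II median 0.90. Over all genes 20.2% were higher.

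In 5 of the 16 mitochondrial members the groups did not overlap, near the 34.0% of all genes in which they did not. The 95% confidence interval stayed inside a 2-fold change up or down for all 16 and for 15489 of 19938 genes. For 10 of the 12 that were not called it stayed inside a 1.5-fold change. The interval was widest for Wars2, the mitochondrial tryptophanyl-tRNA synthetase (log2 0.37, 95% CI -0.06 to 0.80), which had 7.90, 8.25, 7.90 and 8.06 in SKPs, against 7.27, 8.10, 7.80, 7.92 and 7.19 in sorted cells. Its sorted replicates 2 and 20 were low, and without them the log2 difference was 0.09.

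Fars2, the mitochondrial phenylalanyl-tRNA synthetase, was the only member called lower. It had 7.85, 8.10, 8.23 and 7.83 in SKPs, against 8.53, 8.69, 8.51, 8.58 and 8.73 in sorted cells. No SKP array reached the lowest sorted array, and Fars2 was 1.53-fold lower (log2 -0.61, SE 0.10, adjusted p = 9.84e-04 by limma). Rars2, for arginine, was 1.39-fold higher, at 8.72, 8.97, 8.94 and 8.71 in SKPs, against 8.12, 8.39, 8.55, 8.42 and 8.34 in sorted cells (log2 0.47, SE 0.10, adjusted p = 0.00469 by limma). Both calls stood in all 16 alternative fits.

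The other 2 mitochondrial genes called higher, Tars2 and Ears2, lay near the threshold. Tars2, for threonine, was 1.19-fold higher, at 8.54, 8.51, 8.40 and 8.48 in SKPs, against 8.06, 8.31, 8.18, 8.28 and 8.32 in sorted cells (adjusted p = 0.0294 by limma). It was not called without SKP replicate 3 (log2 0.23, adjusted p = 0.0738), 4 (0.24, 0.0688) or 6 (0.25, 0.0653), or without sorted replicate 17 (0.24, 0.0678). Ears2, for glutamate, was 1.22-fold higher, at 6.99, 7.07, 6.91 and 6.80 in SKPs, against 6.40, 6.72, 6.65, 6.76 and 6.75 in sorted cells (adjusted p = 0.0415 by limma). It was not called without SKP replicate 3 (log2 0.27, adjusted p = 0.0965), 4 (0.24, 0.113) or 5 (0.30, 0.0663), or without sorted replicate 2 (0.22, 0.0627), 16 (0.30, 0.0605) or 17 (0.28, 0.0798).

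The other mitochondrial members had log2 differences between -0.27 and 0.37. Iars2, for isoleucine, ranged from 8.76 to 9.06 in SKPs and from 9.06 to 9.49 in sorted cells (log2 -0.27, adjusted p = 0.0906 by limma). Its highest SKP value (replicate 5) and its lowest sorted value (replicate 2) were the same number. Sars2, the partner of the much changed Sars, had 7.38, 7.33, 7.56 and 7.44 in SKPs, against 7.63, 7.43, 7.42, 7.29 and 7.93 in sorted cells (log2 -0.11, 95% CI -0.40 to 0.17). Without sorted replicate 20 its difference was -0.02, and without replicates 2 and 20 it was 0.05. Nars2, the partner of Nars, had 7.84, 8.07, 8.14 and 7.93 in SKPs, against 7.24, 7.89, 7.77, 7.88 and 7.60 in sorted cells (log2 0.32, adjusted p = 0.100 by limma). Its difference was 0.21 without sorted replicate 2 and 0.15 without replicates 2 and 20, and after median centring it was called (0.39, adjusted p = 0.0433). Lars2, for leucine, did not overlap between groups (8.06 to 8.18 in SKPs, 8.18 to 8.33 in sorted cells), although its log2 difference was -0.11 and was not called (adjusted p = 0.229 by limma). The gap was narrow, with a highest SKP value of 8.182 and a lowest sorted value of 8.184.

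Probe-set levels cannot be compared between genes, but the mitochondrial members were the dimmer set, with means over all arrays of 6.51 to 9.05 against 8.43 to 11.57 for the cytosolic members. None of the 34 fell in the dimmest 33.3% of genes (log2 under 6.31). Among all genes with means in the mitochondrial range, 24.9% were higher and 23.8% lower, and in the cytosolic range 32.1% were higher and 24.9% lower. Pars2, for proline, was the dimmest member, with 4 of 5 sorted arrays at the same value (6.48), and Cars2 had the same value (7.69) on 3 of 4 SKP arrays. The part that signal level plays in the difference between the sets was not tested.

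The cytosolic and mitochondrial enzymes for the same amino acid were set against each other within each array. In all 16 pairs, which include Eprs and Fars2 in 2 pairs each, the cytosolic gene had the larger SKP minus sorted difference, by 0.44 to 1.68 on the log2 scale. Sars minus Sars2 was 4.42 to 4.77 on the SKP arrays and 2.73 to 3.02 on the sorted arrays, a difference of 1.68 (SE 0.10). Farsb minus Fars2 differed by 1.61 (SE 0.11) and Iars minus Iars2 by 1.52 (SE 0.10). For 14 pairs the exact two-sided permutation p was 0.0159, the smallest that 4 against 5 arrays allow (unadjusted). It was 0.0317 for Vars and Vars2 (0.55, SE 0.17) and 0.222 for Wars and Wars2 (0.52, SE 0.31). In those 14 pairs the array-level differences did not overlap between groups, as in 34.0% of all genes taken singly. The share over other gene pairs was not computed. Every cytosolic gene in the pairs was also called higher alone, so the pairs in part restate those calls. The members were chosen with earlier results of these data known.

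**Figure D3:**
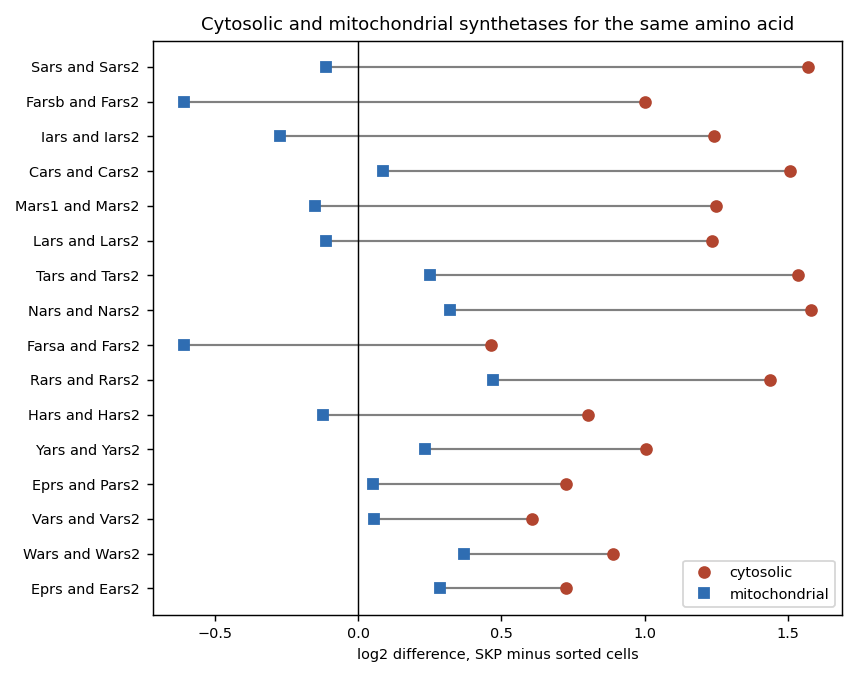
Log2 difference, SKP minus sorted cells (x axis), of the cytosolic (circle) and mitochondrial (square) synthetase gene for the same amino acid, in 16 pairs ordered by the gap between them. The cytosolic gene lies to the right in each pair, with gaps of 0.44 (Eprs and Ears2) to 1.68 (Sars and Sars2).

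Array by array, the mean log2 level of the 18 cytosolic members was 10.50, 10.57, 10.55 and 10.52 in SKPs, against 9.61, 9.39, 9.43, 9.36 and 9.83 in sorted cells. The SKP arrays lay within 0.1 of each other, and sorted replicates 2 and 20 were the highest sorted arrays. Sorted replicate 20 held the highest sorted value in 14 of the 18 genes. The mean of the 16 mitochondrial members was 7.77, 7.91, 7.90 and 7.82 in SKPs, against 7.62, 7.86, 7.81, 7.85 and 7.81 in sorted cells. These groups overlapped, and sorted replicate 2 held the lowest sorted value in 9 of the 16 genes. The cytosolic mean exceeded the mitochondrial mean by 2.65 to 2.73 on the SKP arrays and by 1.51 to 2.02 on the sorted arrays.

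**Figure D4:**
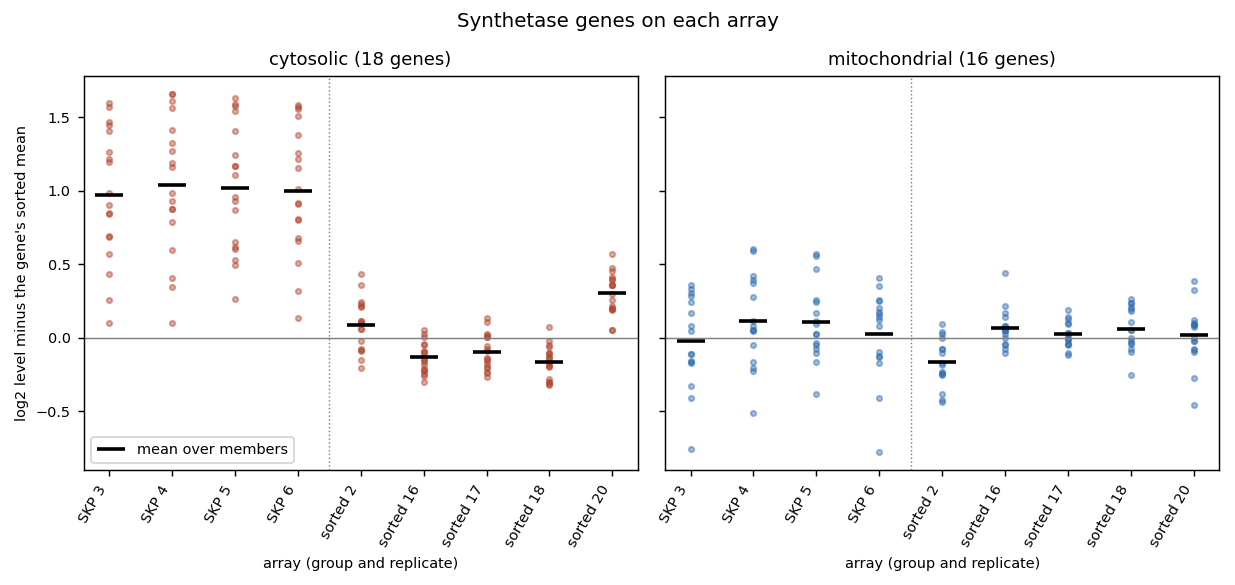
Log2 level of each synthetase gene minus its own mean over the sorted arrays (y axis) on each array (x axis, SKP left of sorted), with a black bar for the mean over members. The cytosolic genes lie higher on all 4 SKP arrays, sorted replicate 20 stands above the other sorted arrays, and the mitochondrial genes scatter around 0 on both sides.

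Markers of several cell types also differed between the groups and between sorted arrays. All 13 dermal papilla markers, Sox2 among them, were lower in SKPs, and so were all 12 keratinocyte markers, with a summed linear level of 1063 to 1360 in SKPs and 10986 to 54596 in sorted cells. The highest keratinocyte sums in sorted cells were on replicates 20 (54596) and 2 (19675), the arrays with the highest cytosolic synthetase means. Melanocyte sums (8697 on replicate 2, 7806 on replicate 20) and endothelial sums (1335 and 1943) were also highest there. Dermal papilla sums were lowest there, at 28223 and 18800 against 56927 to 64128 on the remaining sorted arrays. So were hair shaft and matrix sums, at 2851 and 2526 against 18262 to 20163. Schwann cell, myeloid and smooth muscle sums did not set these arrays apart. All 7 measured Schwann cell markers were lower in SKPs, and so were 6 of 7 smooth muscle and pericyte markers. Of 10 melanocyte and 10 hair shaft and matrix markers, 8 each were lower, and of 8 endothelial markers 2 were. Mitf, a melanocyte marker, and Pdgfrb, a pericyte marker, were higher. Over all genes 20.2% were higher and 16.9% lower. Of 10 dermal fibroblast markers 6 were higher and 1 lower in SKPs. Their sum was 65322 to 70902 in SKPs, and in sorted cells 55390 on replicate 2, 47139 on replicate 20 and 29012 to 31506 on the remaining arrays. Between replicates 2 and 20 the cytosolic synthetase means ran the other way, at 9.61 and 9.83. All 10 myeloid markers were higher in SKPs, with sums of 1967 to 7675 in SKPs and 679 to 922 in sorted cells. Within SKPs the myeloid sum was lowest on replicate 4 (1967) and highest on replicate 5 (7675), whose cytosolic synthetase means were 10.57 and 10.55. In such bulk samples fewer cells of a type and less RNA per cell cannot be told apart, and the part of other cell types in the synthetase levels was not tested.

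Proliferation genes did not separate the groups in the same way. Their mean level was 9.28 to 9.67 in SKPs. In sorted cells it was 9.70 (replicate 2) and 9.91 (replicate 20), while the remaining 3 arrays had 8.08 to 8.40. Of 16 proliferation genes 1 was higher in SKPs, the mitotic kinase Plk1 (2.24-fold), and 15 were higher without sorted replicates 2 and 20, a setting in which 25.4% of all genes were higher. On those 2 arrays the proliferation mean was above that of every SKP array, and the cytosolic synthetase means of 9.61 and 9.83 lay below all SKP arrays (10.50 to 10.57). Those arrays also differed from the other sorted arrays in cell type markers, and the part of proliferation in the synthetase levels was not tested.

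Genes of the amino acid response, the program of ATF4, were mostly higher in SKPs. Of 24 measured genes 19 were higher and 1 lower (median log2 difference 1.12), and their mean level was 9.80 to 9.97 in SKPs against 8.59 to 8.89 in sorted cells. The cystine transporter gene Slc7a11 was 10.4-fold higher (adjusted p = 2.24e-07 by limma), the mitochondrial folate enzyme gene Mthfd2 7.50-fold and Trib3, an ATF4 target and regulator, 6.07-fold. Asns, which makes asparagine, was 6.04-fold higher and Atf4 itself 1.19-fold, both chosen after their values were seen. The amino acid transporter gene Slc38a2 was 1.33-fold lower. Of 8 genes for eIF2 kinases, their regulators and phosphatase subunits, 2 were higher and 2 lower (median log2 difference 0.10). Over all genes 20.2% were higher and 16.9% lower. Eif2ak2, the interferon-induced eIF2 kinase, was 4.83-fold higher and Impact, an inhibitor of the eIF2 kinase Gcn2, 2.29-fold. Ppp1r15a and Ppp1r15b, the inducible and constitutive subunits of the eIF2 phosphatase, were 2.56-fold and 1.24-fold lower.

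Other steps around tRNA charging had counts near the all-gene shares of 20.2% higher and 16.9% lower. Of 12 genes of tRNA maturation, export and proofreading, 3 were higher and 2 lower (median log2 difference 0.09). Xpot, the tRNA exporter, was 1.61-fold higher (adjusted p = 3.44e-04 by limma) and Prorsd1, a proofreading homologue, 2.05-fold. Tarsl2, a further threonyl-tRNA synthetase gene outside the list of members, was lower (log2 -0.89), at 6.19 ± 0.16 in SKPs (SD, n = 4) and 7.08 ± 0.04 in sorted cells (SD, n = 5), opposite in sign to Tars. Its SKP level lay under 6.31, where levels may be background, so the size of the change is not settled. Of 5 measured elongation factor genes 0 were higher and 1 lower, Eef2 (1.37-fold lower), and the others had log2 differences of 0.04 (Eef1a1), 0.12 (Eef1a2), -0.08 (Eef1b2) and 0.14 (Eef1d). One of the 5 was called higher after quantile normalization, and likewise after median centring.

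Other genes of mitochondrial translation are given beside the synthetases, with no test between them. Of 77 mitochondrial ribosomal protein genes 38 were higher and 1 lower (median log2 difference 0.37), led by Mrps6 (6.06-fold higher). Without sorted replicates 2 and 20, 57 were higher, a setting in which 25.4% of all genes were higher. Of 18 mitochondrial translation factors 6 were higher and 2 lower (median log2 difference 0.16), beside 20.2% higher and 16.9% lower over all genes. Tufm and Tsfm, the elongation factor that delivers charged tRNA to the mitochondrial ribosome and its exchange factor, were 1.49-fold and 1.56-fold higher.

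**Figure D5:**
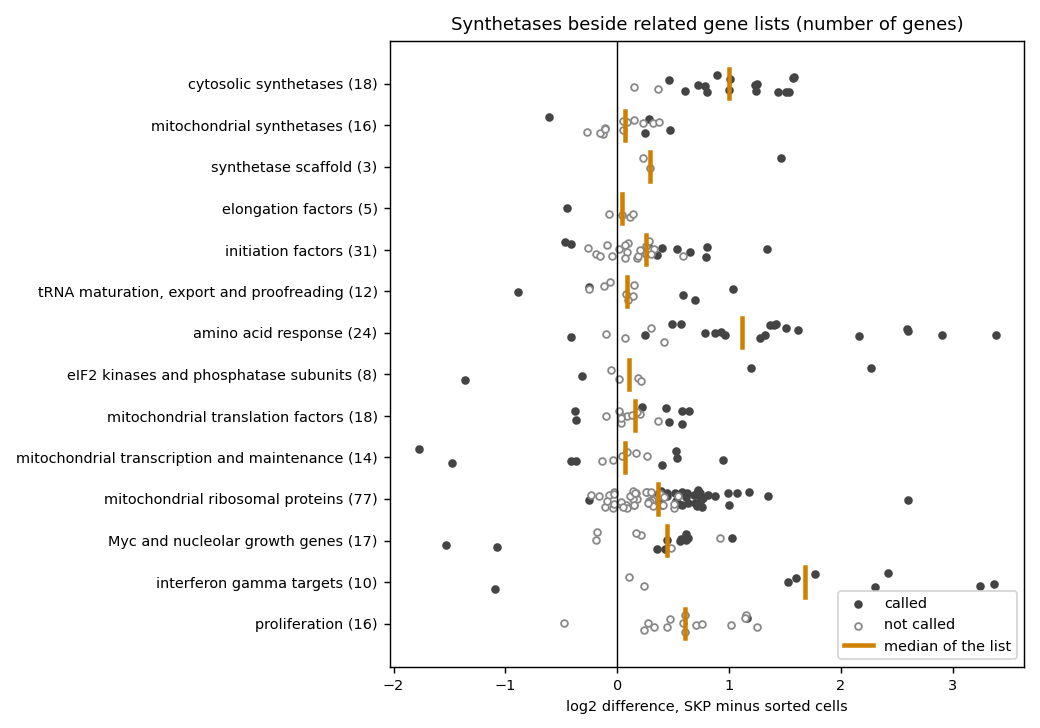
Log2 difference, SKP minus sorted cells (x axis), of each gene in the synthetase sets and 12 related gene lists, with filled points for called genes and a bar for the median of each list. The medians are 1.00 for cytosolic and 0.07 for mitochondrial synthetases, 1.12 for the amino acid response and 0.37 for mitochondrial ribosomal proteins.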

How the data were processed

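The deposited values are log2 RMA levels, 1 per probe set and array, which the authors made with RMA, Affymetrix Expression Console and limma, per the submitters' processing notes, without versions. RMA adjusts background, normalizes quantiles between arrays and summarises probes. No genome build is given in the sources used here. Of 35556 probe sets, 21789 have 1 gene symbol in the platform annotation, 1621 several and 12146 none listed, which gave 19938 genes. Entrez identifiers of 19856 genes were found in RefSeq and 0 symbols differed.

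SKP minus sorted was tested with limma 3.58.1 in R 4.3.3 (lmFit and eBayes, no trend, not robust, two-sided), adjusted over all genes. The exact permutation tests of pairs used all 126 assignments of arrays (SciPy 1.17.1) and are unadjusted. Detection p-values were not used, so dim levels cannot be told from background, and the number of arrays limits precision. Related lists were described by counts and medians. The members and lists were chosen with earlier results of these data known. Named genes are all members, up to 3 called genes per list and direction, and the scaffold and elongation lists in full. Alternatives covered normalization, filtering, probe sets, array weights, variance model, threshold and arrays left out. Figures were drawn with matplotlib 3.10.9.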

Additional observations from a re-analysis of the deposited data

Results flagged for a closer look

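In 9 of 170 groups of values (34 synthetase genes and the related genes named by rule, in each group of arrays) 1 array stood far from the others by Dixon's test, which chance flags in about 1 in 20 groups. Among the synthetases, Lars was at 10.61 on SKP replicate 4 and 10.36 to 10.40 on the other SKP arrays. Iars2 was at 9.49 on sorted replicate 20 and 9.06 to 9.13 on the other sorted arrays. Cars2 (7.70 on SKP replicate 5, 7.69 on the others) and Pars2 (6.478 on sorted replicate 17, 6.484 on the others) were flagged because the other arrays held 1 identical value, and the gaps are small.

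Among related genes, Eef2 was at 12.75 on sorted replicate 2 (12.91 to 12.92 on the others), and Eif4g3 (9.69) and Mrrf (8.75) were high on SKP replicate 4, against 9.64 on the others for Eif4g3 and 8.59 to 8.62 for Mrrf. On sorted replicate 20, Slirp was at 9.44 (8.61 to 8.84 on the others) and Polg2 at 7.70 (8.21 to 8.39 on the others).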

How the results depend on the processing

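The 16 cytosolic genes called higher were called in all 16 alternative fits. The count was 18 with array weights, without sorted replicate 20 and without sorted replicates 2 and 20, where 30.8%, 22.9% and 25.4% of all genes were higher. In any alternative 0 cytosolic genes were lower. The mitochondrial genes called higher numbered 5 after median centring, 4 after quantile normalization and with array weights, 1 at an adjusted p under 0.01 and 1 to 3 with 1 array left out, against 3 (1 without SKP replicate 3 or 4 or sorted replicate 17). Those called lower numbered 2 after quantile normalization (Fars2 and Iars2), 4 with array weights and 2 without sorted replicates 2 and 20 (Fars2 and Hars2), against 1. Over all genes the share called higher was 26.6% after median centring, against 20.2% as reported, and the share called lower 22.6% with array weights, against 16.9%. The cytosolic median exceeded the mitochondrial median by 0.93, and by 0.83 to 1.08 over the alternatives. Median centring shifts the median of all genes to 0.14, against 0.07 as deposited. Of the 12 mitochondrial genes not called, 7 stayed so throughout. No paired analysis was possible because the groups share no replicate numbers.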

Other observations

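Cap-binding and growth genes were also described. Of 31 measured initiation factors 9 were higher and 2 lower in SKPs, with a median log2 difference of 0.26, beside 20.2% higher and 16.9% lower over all genes. Without sorted replicates 2 and 20, 20 of the 31 were higher, as were 25.4% of all genes. Eif4ebp1, the binding protein that holds the cap-binding factor back and a known ATF4 target, was 2.53-fold higher, and the cap-binding factor gene Eif4e 1.75-fold. Of 17 Myc and nucleolar growth genes 9 were higher and 2 lower. The ribosome assembly gene Wdr12 was 2.04-fold higher, whereas Mycn and Mycl were 2.90-fold and 2.11-fold lower.

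Of 14 genes of mitochondrial transcription and maintenance 4 were higher and 4 lower, beside 20.2% higher and 16.9% lower over all genes. Slirp, which binds mitochondrial messenger RNA, was 1.93-fold higher, and Polg2, a subunit of the mitochondrial DNA polymerase, was 3.42-fold lower. The coactivator gene Ppargc1a was lower (log2 -1.48), with an SKP level under 6.31 that may be background, at 5.55 ± 0.09 in SKPs (SD, n = 4) and 7.03 ± 1.01 in sorted cells (SD, n = 5). Its sorted level was 5.91 and 5.94 on replicates 2 and 20 and 7.67 to 7.95 on the other sorted arrays.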
